A study of Mus musculus with 16 samples.

Results

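The 53 genes described here encode scaffolds of the postsynaptic density and adhesion proteins of the synapse. They are a list of named genes, drawn up with earlier results of these data known, and all 53 were found among the 48397 gene symbols counted in every library. All 53 also passed the filter on low counts, which left 17038 genes to test. RNA was sequenced from primary hippocampal cultures of wild type CD1 mice, prepared from P0-P2 pups and treated at 3 days in vitro (DIV) with cytosine arabinoside against dividing cells. Each of 4 groups held 4 libraries, which came from separate cultures. The control cultures received medium of immortalized *Apoe-/-* astrocytes, and the apoE2, apoE3 and apoE4 cultures received medium of immortalized astrocytes homozygous for the human *APOE* allele of that name, which carries apoE lipoproteins. All media were harvested with 25-hydroxycholesterol, concentrated 10-fold, and given at 10 and 13 DIV before RNA was taken at 17 DIV. The neurons' own mouse *Apoe* gene was intact in every group, and the apoE level had been balanced between isoforms with medium of *Apoe-/-* astrocytes. The comparisons ask whether these scaffold and adhesion genes differ in RNA level between each isoform and the control, and between isoforms.

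The postsynaptic density is a layered protein mesh beneath the membrane of excitatory synapses. MAGUK proteins, PSD-95 among them, hold glutamate receptors in it, SAPAP, Shank and Homer proteins join this layer to the actin of the dendritic spine, and the kinase CaMKII sits among them and responds to calcium. Adhesion proteins such as neuroligins, LRRTMs and SLITRKs span the cleft from the postsynaptic side and bind neurexins or LAR-type receptor phosphatases on the axon.

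The libraries held 14087723 to 34248172 counts on genes. Libraries with the same replicate number deviated together from their group means, least clearly those of number 1. Each difference is therefore given from an edgeR fit with groups only and from the same fit with the replicate number as a block. Summed over 12 neuronal markers the level was 3950 to 9180 CPM, counts relative to the library size as scaled by TMM, and every one of these markers was detected in every library. Summed over 10 astrocyte markers it was 1430 to 3220 CPM in control, 1330 to 3210 with apoE2, 1720 to 6690 with apoE3 and 1590 to 5450 with apoE4, so that the labelled neuronal cultures also held astrocyte RNA. Oligodendrocyte lineage markers summed to 125 to 945 CPM, vascular and fibroblast markers to 31.6 to 542, microglial markers to 15.6 to 93.1 and markers of dividing cells to 26.1 to 71.6. *Tmem119* and *Cldn5* were at 0 in at least 1 library. In such bulk RNA, fewer cells of a type and less RNA per cell cannot be told apart.

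Levels between genes were compared per length of exon, as CPM per kb, in the control libraries. The median of the 53 genes was 15.1 CPM per kb, and that of the 16492 tested genes with a length was 3.39. *Ppp1r9b*, which encodes the actin-binding scaffold spinophilin, stood highest at 112 ± 13.9 CPM per kb (SD, n = 4), next to the CaMKII subunit *Camk2b* at 104 ± 8.67, and the pair differed by less than the spread between cultures. *Camk2a* at 75 ± 23.4, the netrin-G ligand family gene *Lrrc4b* at 74.4 ± 7.61 and the receptor phosphatase gene *Ptprs* at 53.7 ± 6.93 followed. *Dlg4*, which encodes PSD-95, stood at rank 10 with 25.9 ± 4.83 CPM per kb, within the spread of its neighbours *Baiap2* (26.5 ± 3.36) and *Slitrk5* (25.1 ± 2.84). At the low end stood *Lrrtm3* (2.59 ± 0.52), *Il1rapl1* (2.58 ± 0.33), *Lrrtm4* (2.04 ± 0.29) and *Syndig1l* (1.8 ± 0.46), each below the median of all tested genes. Relative to its mean the spread was widest for *Homer1*, at 17.1 ± 13.1 CPM per kb. An exon length per gene takes no account of which transcripts were present.

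**Figure D1:**
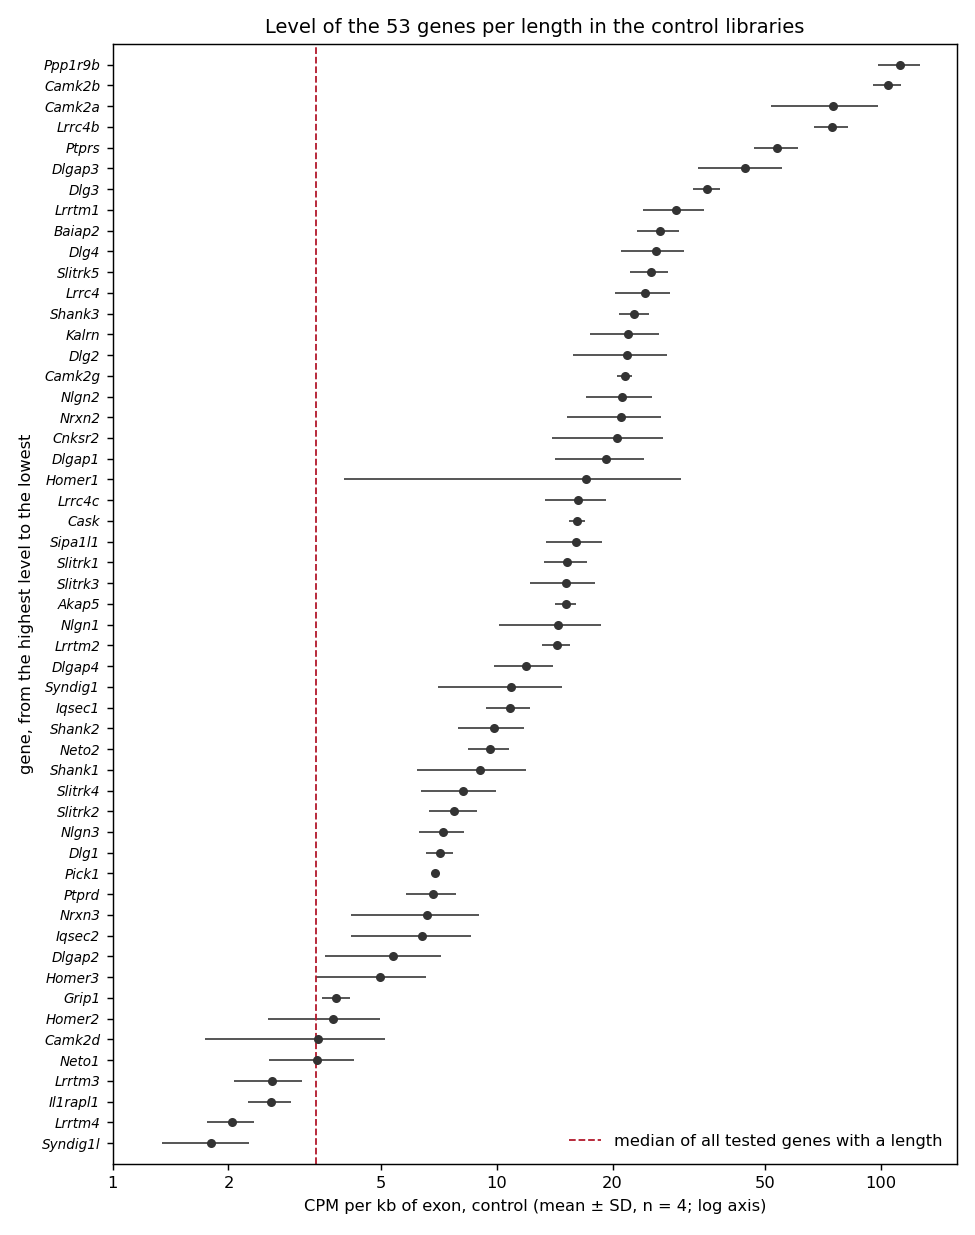
Level of each gene in the 4 control libraries, as CPM per kb of exon on a log axis, with the mean as a point and the SD as a bar. *Ppp1r9b* (112) and *Camk2b* (104) stand highest, *Syndig1l* (1.8) lowest, *Homer1* has the widest bar, and the dashed line marks the median of all tested genes with a length (3.39).

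Most of the 53 genes stood slightly lower with apoE3 than in control, as did most of the 12 neuronal markers. Of the 53, *Syndig1l* stood several times higher. In the fit on groups alone none of the 53 genes passed an adjusted p of 0.05 in any comparison (edgeR quasi-likelihood test). Among all tested genes the percentage called was 0% for apoE2, 0.00587% for apoE3 and 0.194% for apoE4 against control, 0.147% for apoE4 against apoE3, 0.252% for apoE4 against apoE2 and 0% for apoE3 against apoE2. At an unadjusted p under 0.05 the members numbered 2, 3 and 1 against control and 1, 0 and 2 between isoforms, in the same order, where the shares of all tested genes were 2.79, 6.43 and 3.3% and 4.7, 5.34 and 2.28%. The smallest adjusted p of a member against control was 0.8 for apoE2, 0.202 for apoE3 and 1 for apoE4. DESeq2 on the same design called 2 members with apoE3 (*Akap5* and *Syndig1l*, beside 0.242% of all genes with an adjusted p) and 1 between apoE4 and apoE3 (*Syndig1l*, beside 0.295%). It called none with apoE2 (0.076% of all genes) or apoE4 (0.447%), and none for apoE4 against apoE2 (0.833%) or apoE3 against apoE2 (0.0145%).

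With the replicate number as a block, 11 of the 53 genes (20.8%) were called with apoE3 against control, while 11.7% of all tested genes were called. Of these 11, 10 fell, against a background of 3.73% of genes called lower, and 1 rose, against 7.95% called higher. With library sizes set to the summed neuronal markers 8 of the 53 genes were called, beside 14% of all tested genes. These calls were 4 lower and 4 higher, and 6 of the 10 lower calls were lost. With apoE2 1 gene fell (background 1.73%) and with apoE4 no gene was called (background 3.3%), where 4 members reached an unadjusted p under 0.05 (*Akap5*, *Camk2b*, *Nlgn1* and *Pick1*, beside 16.6% of all genes). At that threshold 10 members were counted with apoE2 (13.3% of all genes) and 22 with apoE3 (27.5%). DESeq2 with the block called 4 members with apoE2 (*Camk2d*, *Nrxn2* and *Syndig1l* higher and *Lrrtm3* lower, background 4.32%), 14 with apoE3 (15.3%) and none with apoE4 (5.99%). Blocked edgeR without the libraries of number 4 called 3 with apoE2 (*Camk2d* and *Nrxn2* higher and *Lrrtm3* lower, 4.14%). *Camk2d* also passed with apoE2 without apoE2 replicate 4 (4.97%), *Nrxn2* without apoE4 replicate 4 (1.93%) and *Syndig1l* without apoE2 replicate 1 (0.882%). On groups alone the median log2 fold change with apoE3 was 0.02 over all tested genes. Over the 12 neuronal markers it was -0.25 (-0.28 with the block). The median of the 53 genes was -0.18, and 42 of the 53 values were negative. Leaving out apoE3 replicate 4 brought this median to -0.03, and leaving out apoE3 replicate 2 brought it to -0.34. In the blocked fit the median was -0.21, -0.14 after the first of these omissions and -0.32 after the other. On groups alone it was -0.01 with apoE2, beside 0.01 over all genes, and -0.04 with apoE4, beside 0.00, and without 1 library it ranged from -0.151 to 0.066 with apoE2 and from -0.142 to 0.049 with apoE4. Within replicate numbers, 22 members were below the control of the same number in 4 of 4 pairs with apoE3 (16.1% of all genes), 7 with apoE2 (9.74%) and 11 with apoE4 (11.3%). The 3 comparisons share their 4 control libraries.

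**Figure D2:**
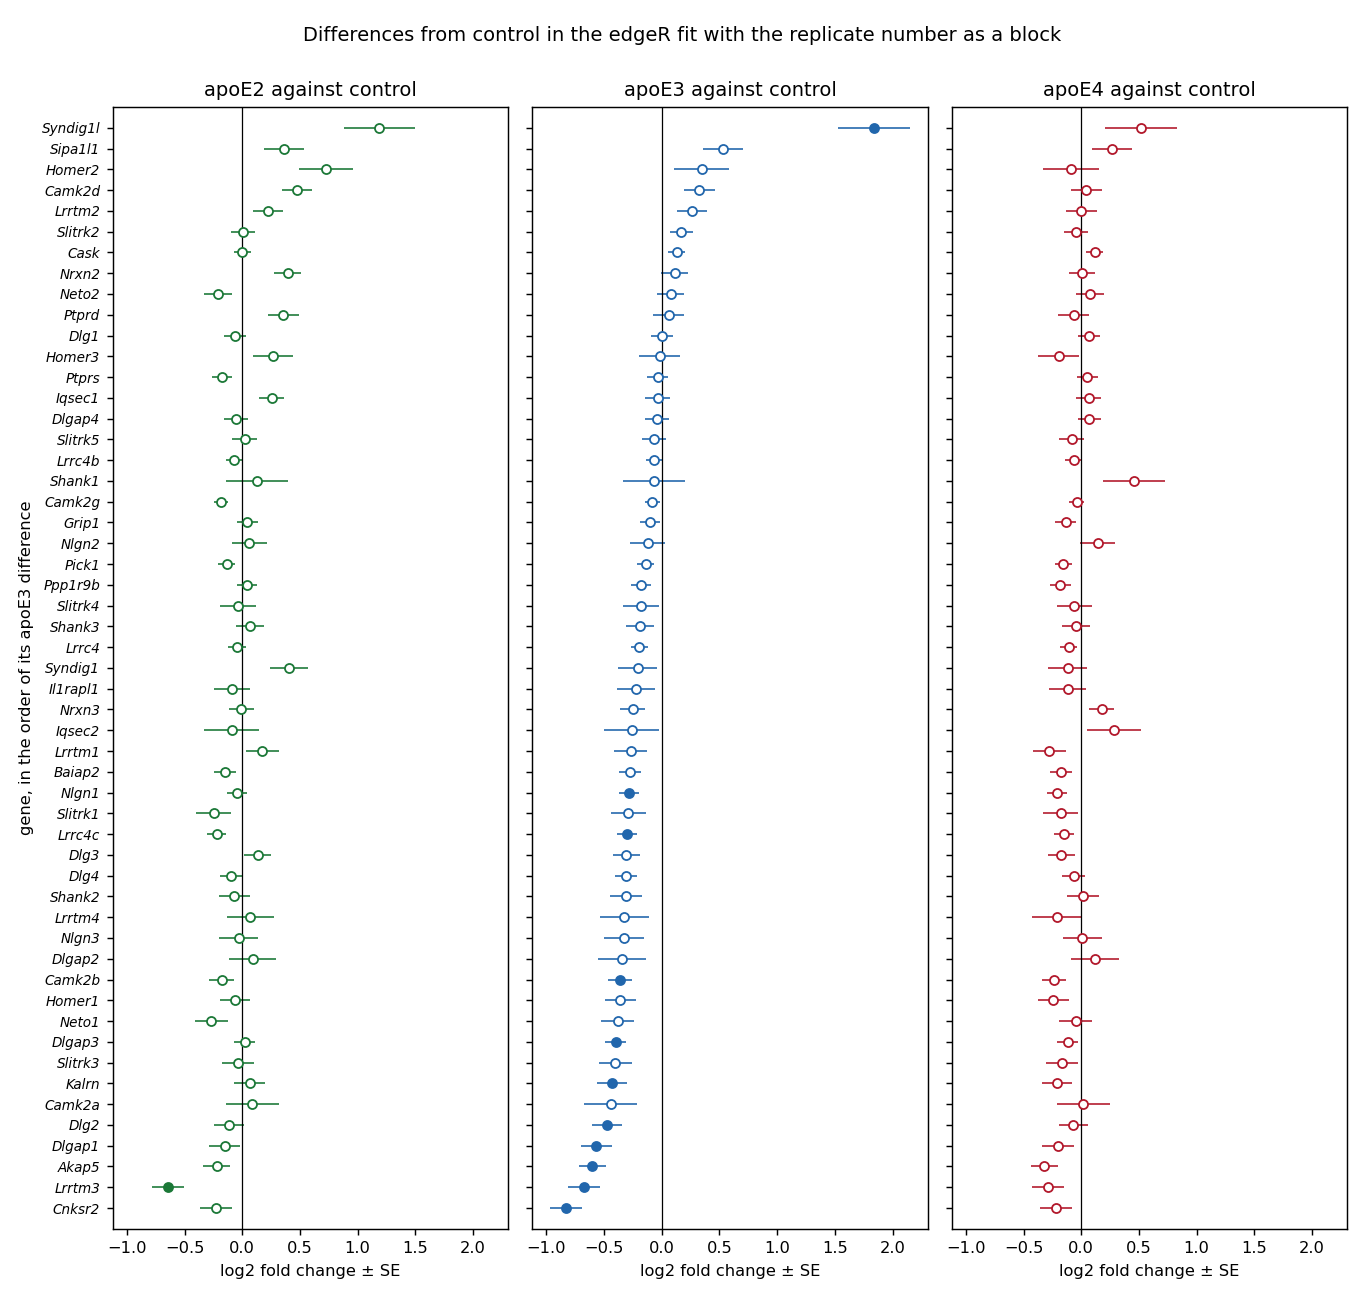
Log2 fold change against control in the edgeR fit with the replicate block, 1 row per gene in the order of its apoE3 difference, with the SE as a bar. Filled points passed an adjusted p of 0.05: 11 genes with apoE3, of which 10 lie to the left of 0 and *Syndig1l* lies at 1.84, 1 gene (*Lrrtm3*) with apoE2 and none with apoE4. Of the 10, 6 did not pass when library sizes were set to the neuronal markers.

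By the study's criterion of an at least 2-fold change with an unadjusted p under 0.05, applied here to the edgeR p and not to that of the test the methods name, *Syndig1l* was the single member in every comparison that had one. It was above control with apoE2 and with apoE3, and below apoE3 with apoE4. The test named in the methods, run on the same libraries, gave the same number of members in each comparison. The share of all tested genes that met the criterion was 0.722% for apoE2, 1.96% for apoE3 and 1.15% for apoE4 against control, and 1.25%, 1.3% and 0.687% for apoE4 against apoE3, apoE4 against apoE2 and apoE3 against apoE2, the last 2 and apoE4 against control without a member.

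*Syndig1l* encodes a paralogue of SynDIG1, a transmembrane protein that associates with AMPA receptors. The gene lies at chr12:84677277-84698831 on the minus strand of GRCm38. *Syndig1l* had 6.18, 5.92, 3.46 and 6.6 CPM in control replicates 1 to 4, 7.19, 12.1, 16.6 and 13.4 with apoE2, 22.6, 14.7, 27.6 and 14.4 with apoE3 and 11.5, 7.87, 4.76 and 7.58 with apoE4. All 4 apoE3 libraries and all 4 apoE2 libraries lay above all control libraries, while the apoE4 values overlapped with both the control and the apoE2 values. The log2 fold change (± SE) with apoE3 was 1.84 ± 0.32 on groups alone (edgeR adjusted p = 0.202) and 1.84 ± 0.31 with the block (adjusted p = 0.00237), and in the blocked fit it rose by 258%. With apoE2 it was 1.16 ± 0.32 (adjusted p = 0.8) and 1.19 ± 0.31 with the block (adjusted p = 0.0687), where DESeq2 with the block passed it (adjusted p = 0.00799), and with apoE4 0.52 ± 0.32 with the block (adjusted p = 0.439). Of the variance in its log2 CPM, 72.9% lay between groups and 0.509% between replicate numbers, the lowest share between numbers among the 53 genes. The apoE3 call held in 16 of 16 fits that each left out 1 library, with a log2 fold change of 1.58 to 2.00. These values rest on 86 to 725 counts per library. Of its exon bases 5.75% overlap *Gm48573* on the other strand, and whether the counting used the strand is not stated. Its paralogue *Syndig1*, at 26.8 ± 9.59 CPM in control and 23.5 ± 8.75 with apoE3 (SD, n = 4), had a blocked log2 fold change of -0.21 ± 0.17 (adjusted p = 0.454).

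**Figure D3:**
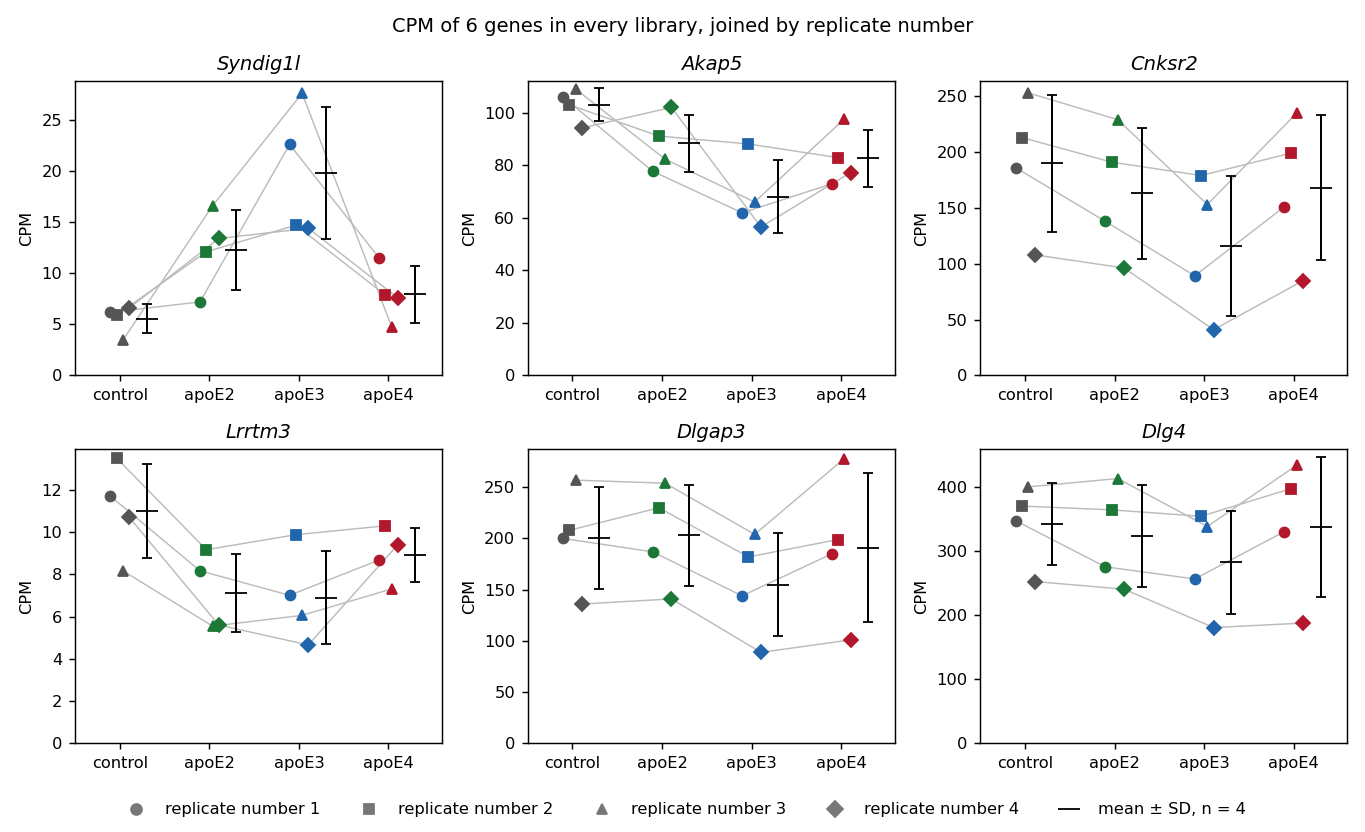
CPM of 6 genes in each of the 16 libraries, with markers for the replicate numbers, grey lines joining libraries of the same number, and the mean and SD of each group beside them. *Syndig1l* is above all controls with apoE2 and apoE3, *Akap5* is below all controls with apoE3 (56.5 to 88.1 against 94.2 to 109), and for *Cnksr2*, *Lrrtm3*, *Dlgap3* and *Dlg4* the groups overlap while every apoE3 library lies below the control of its number.

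*Akap5* was the only gene among the 10 that fell with apoE3 whose apoE3 and control libraries did not overlap. It encodes AKAP79/150, an anchoring protein that brings protein kinase A and calcineurin to AMPA receptors. The gene lies at chr12:76324891-76334153 on the plus strand of GRCm38. The CPM of *Akap5* was 106, 103, 109 and 94.2 in replicates 1 to 4 of control, 77.7, 91.1, 82.3 and 102 with apoE2, 61.9, 88.1, 66 and 56.5 with apoE3 and 72.9, 82.9, 97.6 and 77.2 with apoE4. Every apoE3 library lay below every control library, and the apoE2 and apoE4 values lay between or overlapped both. The log2 fold change with apoE3 was -0.59 ± 0.14 on groups alone (adjusted p = 0.335) and -0.60 ± 0.12 with the block (adjusted p = 0.00524), where it fell by 34.2%. With apoE4 the blocked value was -0.32 ± 0.12 (adjusted p = 0.179) and with apoE2 -0.22 ± 0.12 (adjusted p = 0.461). Its variance lay to 63.6% between groups and to 10.1% between numbers. *Pick1*, which binds AMPA receptor tails and acts in their internalisation, also had 4 apoE3 libraries below all controls, at a blocked log2 fold change of -0.14 ± 0.07 that did not pass (adjusted p = 0.226). The glutamate receptor-interacting protein gene *Grip1* (-0.10 ± 0.09, adjusted p = 0.493) and the kainate receptor auxiliary genes *Neto1* (-0.38 ± 0.15, adjusted p = 0.101) and *Neto2* (0.08 ± 0.12, adjusted p = 0.717) did not pass either. Of these 7 receptor-binding and trafficking genes, 1 rose (7.95% of all tested genes) and 1 fell (3.73%) with apoE3 in the blocked fit. Groups also did not overlap for *Camk2g*, lower with apoE2 than in control, and *Neto2*, higher with apoE3 than with apoE2. Neither difference was called. The share of all tested genes whose groups did not overlap was not counted, so lack of overlap sets no gene apart here.

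Among the MAGUK scaffolds 1 of 5 genes was called with apoE3 in the blocked fit, beside 11.7% of all tested genes. None was called with apoE2 (1.73%) or apoE4 (3.3%). *Dlg4* encodes PSD-95, the most studied scaffold of the postsynaptic density. It lies at chr11:70016942-70047522 on the plus strand of GRCm38. In replicates 1 to 4, *Dlg4* stood at 348, 371, 401 and 253 CPM in control, 276, 365, 414 and 241 with apoE2, 257, 355, 339 and 181 with apoE3 and 331, 398, 435 and 188 with apoE4. Each apoE3 library was below the control of its number, number 4 was the lowest library of every group, and the groups overlapped. The log2 fold change with apoE3 was -0.28 ± 0.27 on groups alone (adjusted p = 0.817) and -0.31 ± 0.10 with the block, which did not pass (adjusted p = 0.0531). It passed in DESeq2 with the block (adjusted p = 0.0215) and in the blocked edgeR fit with DESeq2 size factors. With apoE2 the blocked value was -0.10 ± 0.10 and with apoE4 -0.07 ± 0.10 (adjusted p = 0.769 for apoE2 and 0.783 for apoE4). The apoE3 difference of *Dlg4* passed in 5 of 16 fits without 1 library, those without control replicate 2, apoE2 replicate 1 or 4, apoE3 replicate 2 or apoE4 replicate 4. *Dlg2* encodes PSD-93, its close relative. *Dlg2* had 324, 452, 413 and 234 CPM in control replicates 1 to 4, 242, 433, 410 and 235 with apoE2, 215, 439, 316 and 121 with apoE3 and 304, 466, 443 and 187 with apoE4. Number 4 was again the lowest library of every group, and its apoE3 value was the lowest of all. *Dlg2* fell by 28.1% with apoE3 in the blocked fit, a log2 fold change of -0.48 ± 0.13 (adjusted p = 0.0283, and 0.822 on groups alone). *Dlg3*, which encodes SAP102, had -0.31 ± 0.12 (adjusted p = 0.103), *Dlg1*, which encodes SAP97, 0.002 ± 0.10 (adjusted p = 0.993), and the MAGUK kinase gene *Cask* 0.13 ± 0.07 (adjusted p = 0.266). *Dlg1* had the smallest swing between replicate numbers of all 53 genes, 0.09 on the log2 scale.

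The SAPAP, Shank and Homer genes gave 2 called genes of 10 with apoE3 in the blocked fit, both SAPAPs, beside 11.7% of all tested genes. The median of the 10 genes was -0.25, with a range of -0.57 to 0.35. SAPAP proteins bind the guanylate kinase domain of PSD-95 and carry Shank. The CPM of *Dlgap1* was 348, 427, 381 and 218 in replicates 1 to 4 of control, 257, 366, 353 and 234 with apoE2, 219, 375, 268 and 112 with apoE3 and 302, 393, 377 and 156 with apoE4. The apoE3 values were below the control of the same number in 4 of 4 pairs, and the groups overlapped. *Dlgap1* fell by 32.5% with apoE3 in the blocked fit (-0.57 ± 0.14, adjusted p = 0.0154, and 0.806 on groups alone). In replicates 1 to 4, *Dlgap3* stood at 200, 208, 257 and 136 CPM in control, 187, 230, 254 and 141 with apoE2, 144, 182, 204 and 88.8 with apoE3 and 185, 199, 278 and 101 with apoE4. The apoE3 value was the lowest of the 4 groups in each replicate number. *Dlgap3* fell by 24.2% with apoE3 against control (-0.40 ± 0.09, adjusted p = 0.0122) and by 25.3% with apoE3 against apoE2 (-0.42 ± 0.09, adjusted p = 0.0384). On groups alone these adjusted p were 0.812 and 1. *Shank3* encodes a scaffold of the deeper layer, whose loss underlies Phelan-McDermid syndrome. *Shank3* had 231, 209, 211 and 186 CPM in control replicates 1 to 4, 191, 251, 264 and 180 with apoE2, 197, 221, 213 and 122 with apoE3 and 237, 212, 256 and 131 with apoE4. Apart from replicate 4 of apoE3 and of apoE4, the libraries lay between 180 and 264 CPM. Its blocked log2 fold change was -0.19 ± 0.12 with apoE3 (adjusted p = 0.332), 0.06 ± 0.12 with apoE2 (adjusted p = 0.896) and -0.04 ± 0.12 with apoE4 (adjusted p = 0.905). *Shank1* and *Shank2* did not pass (-0.07 ± 0.27 and -0.31 ± 0.14 with apoE3), nor did *Dlgap2* (-0.35 ± 0.21), *Dlgap4* (-0.04 ± 0.10), *Homer2* (0.35 ± 0.24) and *Homer3* (-0.02 ± 0.18).

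*Homer1* encodes a protein that links Shank to metabotropic glutamate receptors, and a short form of it, Homer1a, is induced by neuronal activity. The CPM of *Homer1* was 111, 195, 430 and 83.7 in replicates 1 to 4 of control, 131, 159, 285 and 106 with apoE2, 95.7, 157, 281 and 69 with apoE3 and 107, 164, 357 and 63.4 with apoE4. Number 3 was the highest library and number 4 the lowest in all 4 groups, and the groups overlapped. Its blocked log2 fold change was -0.36 ± 0.13 with apoE3 (adjusted p = 0.0943), -0.24 ± 0.13 with apoE4 (adjusted p = 0.389) and -0.06 ± 0.13 with apoE2 (adjusted p = 0.91). Between replicate numbers its mean swung by 2.08 on the log2 scale, the largest of the 53 genes, and 92.7% of its variance lay there. A count per gene does not separate the short form from the long ones.

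CaMKII is built from subunits of 4 genes, of which 1 was called with apoE3 in the blocked fit, beside 11.7% of all tested genes. In replicates 1 to 4, *Camk2b* stood at 975, 1050, 914 and 868 CPM in control, 739, 964, 868 and 796 with apoE2, 748, 955, 803 and 514 with apoE3 and 836, 939, 831 and 654 with apoE4. The apoE3 replicate 4 value was the lowest of all, and each apoE3 value was below the control of its number. *Camk2b*, the actin-binding beta subunit, fell by 22.1% with apoE3 in the blocked fit (-0.36 ± 0.11, adjusted p = 0.0397, and 0.788 on groups alone). *Camk2a* had 644, 722, 557 and 318 CPM in control replicates 1 to 4, 420, 642, 964 and 371 with apoE2, 412, 705, 557 and 147 with apoE3 and 735, 707, 806 and 204 with apoE4. Replicate 4 was the lowest library of every group, and with apoE3 and apoE4 it stood far below the rest. *Camk2a*, the alpha subunit of forebrain excitatory neurons, did not pass with apoE3 (-0.44 ± 0.23, adjusted p = 0.231), apoE2 (0.09 ± 0.23, adjusted p = 0.928) or apoE4 (0.02 ± 0.23, adjusted p = 0.983). *Camk2d* (0.33 ± 0.13, adjusted p = 0.121) and *Camk2g* (-0.08 ± 0.07, adjusted p = 0.426) did not pass with apoE3.

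Of the neuroligins and neurexins 1 of 5 genes was called with apoE3 in the blocked fit, beside 11.7% of all tested genes. *Nlgn1* encodes the neuroligin of excitatory synapses. The CPM of *Nlgn1* was 162, 265, 213 and 134 in replicates 1 to 4 of control, 154, 231, 212 and 143 with apoE2, 139, 235, 186 and 90.5 with apoE3 and 146, 233, 187 and 109 with apoE4. Number 2 was highest and number 4 lowest in each group, and the apoE3 library was below the control of its number throughout. *Nlgn1* fell by 17.8% (-0.28 ± 0.09, adjusted p = 0.047, and 0.851 on groups alone), and the blocked value with apoE4 was -0.21 ± 0.09 (adjusted p = 0.239). Of its exon bases 9.16% overlap a gene on the other strand. *Nlgn2*, the neuroligin of inhibitory synapses, had -0.12 ± 0.15 (adjusted p = 0.647), and the presynaptic partners *Nrxn2* and *Nrxn3* had 0.11 ± 0.12 (adjusted p = 0.568) and -0.25 ± 0.11 (adjusted p = 0.153). *Nlgn3*, at -0.33 ± 0.17 (adjusted p = 0.229), shares 41.2% of its exon bases with *Gm21986* on its own strand, so its count may be split.

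The leucine-rich repeat adhesion genes gave 2 called genes of 12 with apoE3 and 1 with apoE2 in the blocked fit, all lower. Of all tested genes 11.7% were called with apoE3 and 1.73% with apoE2, in either direction. *Lrrtm3* encodes a postsynaptic ligand of neurexins. It lies at chr10:63928472-64090277 on the minus strand of GRCm38. In replicates 1 to 4, *Lrrtm3* stood at 11.7, 13.5, 8.17 and 10.7 CPM in control, 8.17, 9.17, 5.55 and 5.6 with apoE2, 7.01, 9.88, 6.06 and 4.66 with apoE3 and 8.68, 10.3, 7.31 and 9.41 with apoE4. In each replicate number the control was the highest of the 4 groups, and the control range still overlapped with that of every isoform. It fell by 37.3% with apoE3 (-0.67 ± 0.14, adjusted p = 0.00778) and by 35.9% with apoE2 (-0.64 ± 0.14, adjusted p = 0.0322), and the value with apoE4 was -0.29 ± 0.14 (adjusted p = 0.323). On groups alone the adjusted p was 0.745 with apoE3 and 1 with apoE2. The apoE3 call held in 16 of 16 fits without 1 library and the apoE2 call in 9 of 16, being lost without any 1 of the 4 controls or without apoE2 replicate 1, 2 or 3 (adjusted p up to 0.126). These values rest on 71 to 362 counts per library, and the gene lies within *Ctnna3* on the other strand. *Lrrc4c* encodes the netrin-G1 ligand NGL-1. *Lrrc4c* had 72.4, 90, 81.7 and 58.1 CPM in control replicates 1 to 4, 58.2, 76.8, 69.3 and 54 with apoE2, 55, 83.4, 68.5 and 42.2 with apoE3 and 57.5, 82.8, 68.5 and 61.7 with apoE4. Number 2 was highest in each group, and apoE3 replicate 4 was the lowest of all libraries. *Lrrc4c* fell by 18.6% with apoE3 (-0.30 ± 0.09, adjusted p = 0.0383, and 0.807 on groups alone). The remaining genes, *Lrrtm1*, *Lrrtm2*, *Lrrtm4*, *Lrrc4*, *Lrrc4b* and *Slitrk1* to *Slitrk5*, did not pass, and lay with apoE3 between -0.40 for *Slitrk3* and 0.26 for *Lrrtm2*. The receptor phosphatase genes *Ptprd* (0.06 ± 0.13) and *Ptprs* (-0.04 ± 0.09) and *Il1rapl1* (-0.22 ± 0.16), which encodes a postsynaptic ligand of such phosphatases, did not pass with apoE3 (adjusted p = 0.81, 0.836 and 0.396).

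Among the actin and small GTPase regulators 2 of 7 genes fell with apoE3 in the blocked fit, beside 3.73% of all tested genes called lower. *Cnksr2* encodes a scaffold of Ras signalling in the postsynaptic density and showed the steepest fall of the list. It lies at chrX:157821436-158043294 on the minus strand of GRCm38. The CPM of *Cnksr2* was 186, 213, 253 and 108 in replicates 1 to 4 of control, 138, 191, 229 and 96.2 with apoE2, 89.2, 179, 153 and 40.9 with apoE3 and 151, 199, 235 and 84.9 with apoE4. ApoE3 was the lowest group in every replicate number, from 40.9 in number 4 to 179 in number 2, while number 4 was low in all groups. With apoE3 it fell by 43.6% (-0.83 ± 0.14, adjusted p = 0.00231, and 0.803 on groups alone), and the call held in 16 of 16 fits without 1 library. The blocked value was -0.23 ± 0.14 with apoE2 (adjusted p = 0.531) and -0.22 ± 0.14 with apoE4 (adjusted p = 0.46). *Kalrn* encodes kalirin, a regulator of the actin cytoskeleton that shapes dendritic spines. In replicates 1 to 4, *Kalrn* stood at 557, 543, 630 and 375 CPM in control, 452, 598, 667 and 460 with apoE2, 390, 480, 531 and 216 with apoE3 and 428, 599, 589 and 263 with apoE4. The apoE3 value was lowest of the 4 groups in numbers 1 to 4. *Kalrn* fell by 25.8% with apoE3 (-0.43 ± 0.13, adjusted p = 0.0472, and 0.81 on groups alone). The Rap regulator gene *Sipa1l1* had the second highest value of the list with apoE3, at 0.53 ± 0.17 (adjusted p = 0.0582). *Baiap2*, which encodes IRSp53 (-0.27 ± 0.10, adjusted p = 0.0828), *Ppp1r9b* (-0.18 ± 0.09, adjusted p = 0.198) and the Arf exchange factor genes *Iqsec1* (-0.04 ± 0.11, adjusted p = 0.867) and *Iqsec2* (-0.26 ± 0.24, adjusted p = 0.511) did not pass.

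How firmly these apoE3 calls stood differed between genes. *Lrrtm3*, *Syndig1l*, *Cnksr2* and *Akap5* were called in each of the 16 fits with 1 library left out. *Dlgap1* and *Dlgap3* were lost without control replicate 1 or 4 or apoE3 replicate 1 or 4, and *Dlg2* without these or without apoE3 replicate 3. Their adjusted p then reached 0.0701, 0.0557 and 0.117. *Lrrc4c* was called in 8 of 16 such fits, *Camk2b* in 6, *Kalrn* in 5 and *Nlgn1* in 4, each of them lost without control replicate 1, 3 or 4, without apoE3 replicate 1, 3 or 4 and without apoE2 replicate 3 or apoE4 replicate 3. *Camk2b* and *Kalrn* were also lost without apoE2 replicate 2 or apoE4 replicate 1, *Kalrn* without apoE3 replicate 2, and *Nlgn1* without control replicate 2, apoE2 replicate 1 or apoE4 replicate 1 or 2. The adjusted p of these 4 genes reached 0.142 to 0.188. Beside the share of all genes called in the same fit, the number of members called was 4 without control replicate 1 (4.29% of all genes), control replicate 4 (6.71%) or apoE3 replicate 1 (5.17%), and 5 without apoE3 replicate 4 (5.36%). It was 6 without apoE3 replicate 3 (8.39%), and 7 without control replicate 3 (8.09%), apoE2 replicate 3 (10.3%) or apoE4 replicate 3 (9.67%). It was 17 without apoE3 replicate 2 (14.3%) and 16 without apoE2 replicate 4 (15.9%). With all 4 libraries of number 4 left out 8 were called (8.54%), 7 of them among the 11, and *Lrrtm2* was added.

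Between isoforms, the blocked fit called 2 members for apoE4 against apoE3 (background 1.76%), none for apoE4 against apoE2 (4.44%) and 2 for apoE3 against apoE2 (1.31%). *Syndig1l* fell by 60% from apoE3 to apoE4, with no overlap of the groups (-1.32 ± 0.31 with the block, adjusted p = 0.0398, and 0.265 on groups alone). *Cnksr2* was higher with apoE4 than with apoE3 in 4 of 4 pairs (0.61 ± 0.14, adjusted p = 0.0375, and 1 on groups alone). It was lower with apoE3 than with apoE2 in 4 of 4 pairs (-0.60 ± 0.14, adjusted p = 0.0477). At an unadjusted p under 0.05 the blocked fit counted 14, 14 and 21 members for apoE4 against apoE3, apoE4 against apoE2 and apoE3 against apoE2, beside 16.3, 18 and 15.9% of all genes. DESeq2 with the block called 3 members (background 4.31%), 3 (7.63%) and 5 (4.34%) in these comparisons. The *Syndig1l* call held in 10 of 16 fits without 1 library, being lost without apoE2 replicate 2, apoE3 replicate 1 or 3, or apoE4 replicate 2, 3 or 4, with an adjusted p of up to 0.171. The *Cnksr2* call for apoE4 against apoE3 held in 6 of 16, being lost without control replicate 3, apoE2 replicate 2 or 3, apoE3 replicate 1, 3 or 4, or any apoE4 replicate (adjusted p up to 0.17). Its call for apoE3 against apoE2 held in 2 of 16, those without control replicate 2 and without apoE3 replicate 2, with an adjusted p of up to 0.172 in the others. *Dlgap3* against apoE2 held in 9 of 16, being lost without control replicate 3, apoE2 replicate 2 or 4, apoE3 replicate 1, 3 or 4, or apoE4 replicate 1 (adjusted p up to 0.145). Over the 53 genes the median log2 fold change on groups alone was 0.105 for apoE4 against apoE3 (all genes -0.02), -0.02 for apoE4 against apoE2 (0.01) and -0.18 for apoE3 against apoE2 (0.02). The first of these became -0.04 without apoE3 replicate 4 and 0.22 without apoE3 replicate 2. Without 1 library the second ranged from -0.128 to 0.094 and the last from -0.321 to -0.02, the latter value without apoE3 replicate 4. Without the libraries of number 4 the blocked fit called no member for apoE4 against apoE3 (2.17% of all genes). It then called 1, *Camk2d*, for apoE4 against apoE2 (2.78%) and 1, *Syndig1*, for apoE3 against apoE2 (0.678%), both lower. For apoE4 against apoE2, some fits without 1 library called 1 or 2 members, all lower, beside 2.68 to 5.5% of all genes. These were *Homer2*, *Ptprd*, *Camk2d* or *Nrxn2*.

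Across the 16 libraries the genes varied together by replicate number. The median share of variance between numbers was 67.7% for the 53 genes and 56.1% for all tested genes, and that between groups 14.4% for both. Number 4 was the lowest number for 45 of the 53 genes (84.9%), and for 32.3% of all tested genes. The library apoE3 replicate 4 alone was the lowest of 16 for 32 of them (60.4%, and 17.1% of all tested genes). On the log2 scale the largest swings between numbers after *Homer1* were those of *Nrxn3* (1.64), *Dlgap2* (1.60), *Camk2a* (1.52) and *Cnksr2* (1.46), while *Dlg1* (0.09), *Cask* (0.14) and *Syndig1l* (0.15) swung least. Taken pair by pair, the median difference of the 53 genes between apoE3 and control was -0.26 in number 1, -0.03 in number 2, -0.07 in number 3 and -0.45 in number 4. With apoE4 it was -0.02, 0.00, -0.01 and -0.29, and with apoE2 -0.27, -0.02, 0.11 and 0.02.

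**Figure D4:**
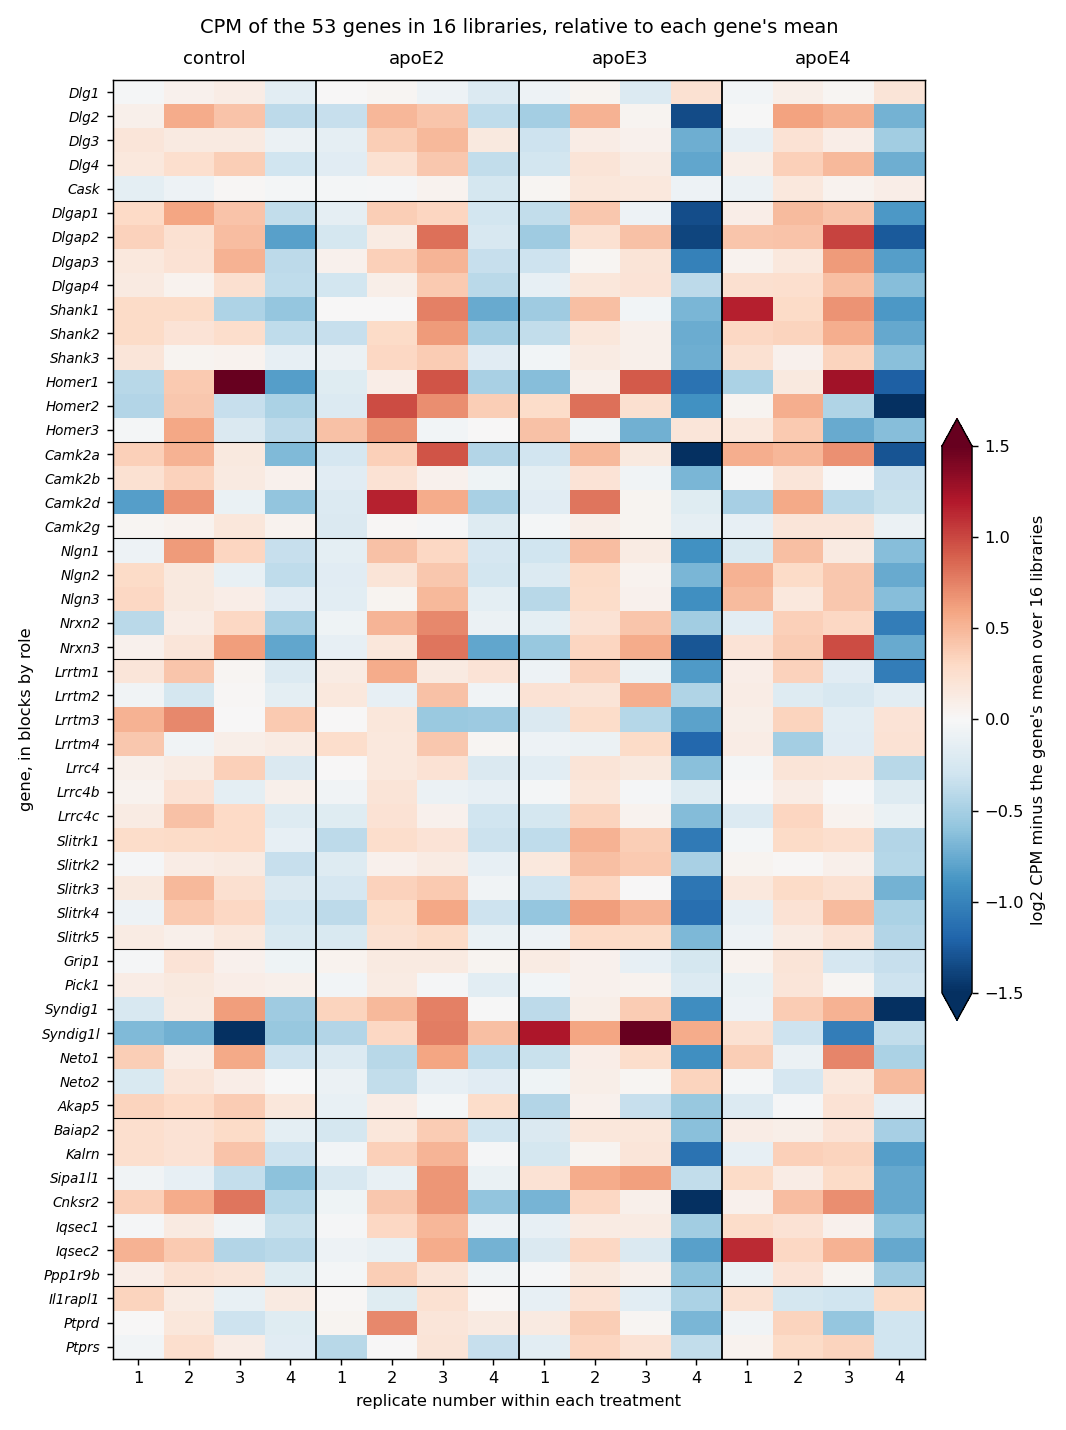
Each gene's log2 CPM minus its mean over the 16 libraries, with genes in blocks by role and libraries by treatment and replicate number (colours end at 1.5 in either direction). Libraries of number 4 are mostly blue, apoE3 replicate 4 being the lowest for 32 of 53 genes, *Homer1* is highest in number 3, and *Syndig1l* alone is high throughout apoE3.

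The summed level of the 53 genes moved with that of the neuronal markers. It was 9080, 10200, 9880 and 7070 CPM in control replicates 1 to 4, 7580, 10100, 11100 and 7350 with apoE2, 7430, 10200, 9390 and 5170 with apoE3 and 8930, 10200, 10400 and 5730 with apoE4. The neuronal markers summed to 6440, 8370, 9130 and 5490 in control, 6030, 8180, 9180 and 5820 with apoE2, 5460, 8500, 8630 and 3950 with apoE3 and 6030, 8770, 8820 and 4530 with apoE4. Both were lowest in apoE3 replicate 4, where the astrocyte markers were highest at 6690. With the block, 4 of the 12 neuronal markers fell and 1 rose with apoE3, and 9 of the 10 astrocyte markers rose. Of all tested genes 3.73% were called lower and 7.95% higher. Of the oligodendrocyte lineage markers 5 of 10 rose, of the tested vascular and fibroblast markers 2 of 10, of those of dividing cells 1 of 10 and of the microglial markers 0. With apoE4 4 of the 10 astrocyte markers rose (3.3% of all genes in either direction), where no neuronal marker and no member was called. In an alternative chosen after the data were seen, library sizes were set to the summed neuronal markers in the blocked fit. The median of the 53 genes was then -0.02 and that of all tested genes 0.21, and 8 members were called, 4 lower (*Cnksr2*, *Akap5*, *Dlgap1* and *Dlg2*) and 4 higher (*Syndig1l*, *Sipa1l1*, *Lrrtm2* and *Slitrk2*). On this scale 14% of all tested genes were called with apoE3. *Cnksr2* had -0.65 ± 0.10 (adjusted p = 0.00107) and *Akap5* -0.42 ± 0.11 (adjusted p = 0.0182). *Lrrtm3* at -0.50 ± 0.17 (adjusted p = 0.0544), *Kalrn* at -0.24 ± 0.09 (adjusted p = 0.0795), *Dlgap3* at -0.21 ± 0.09 (adjusted p = 0.117), *Camk2b* at -0.17 ± 0.08 (adjusted p = 0.137), *Nlgn1* at -0.10 ± 0.08 (adjusted p = 0.364) and *Lrrc4c* at -0.12 ± 0.10 (adjusted p = 0.448) did not pass. The *Lrrtm3* call with apoE2 was lost, as were the calls of *Dlgap3* and *Cnksr2* for apoE3 against apoE2, and those of *Cnksr2* and *Syndig1l* for apoE4 against apoE3 held. The ratio of the 53 genes' counts to the neuronal markers' counts was 1.08 to 1.41 in control, 1.21 to 1.26 with apoE2, 1.09 to 1.36 with apoE3 and 1.16 to 1.48 with apoE4, so the groups overlapped. The part of RNA of astrocytes, or of the other cell types, in these differences was not tested.

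**Figure D5:**
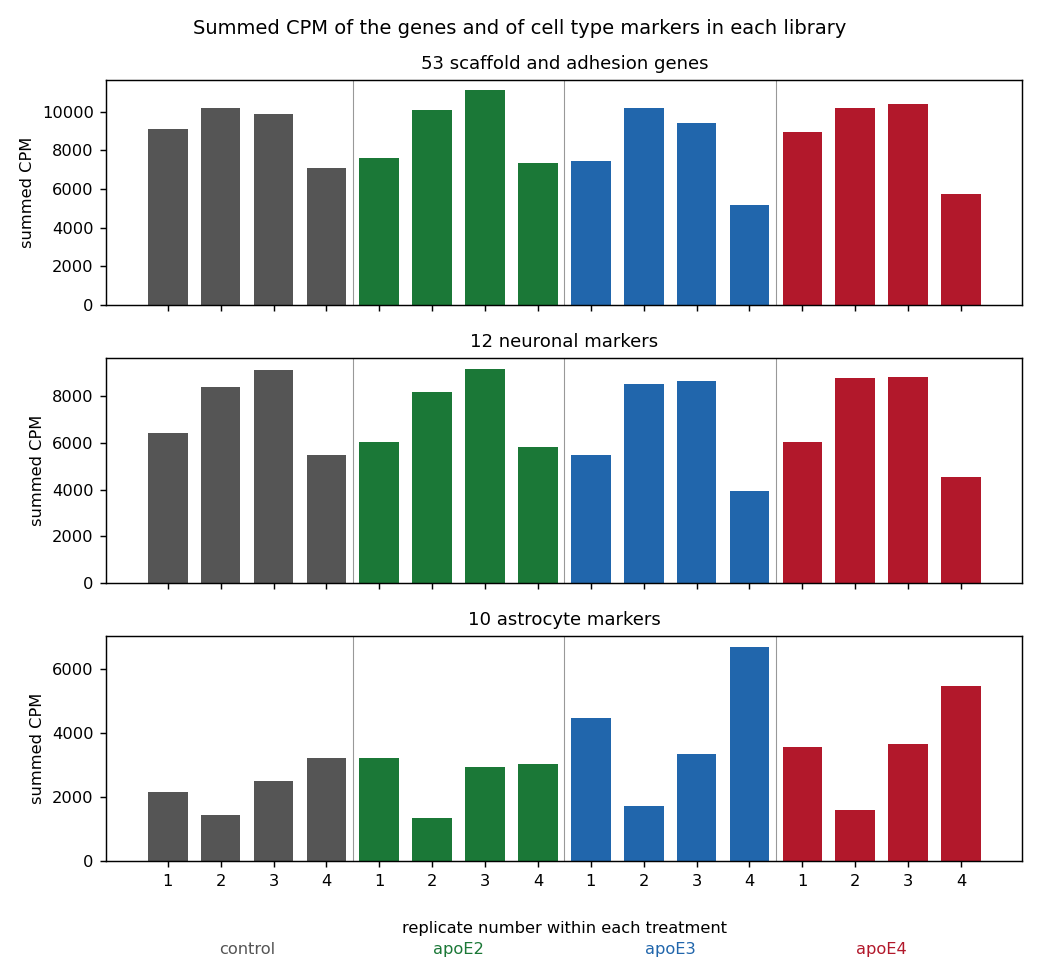
Summed CPM of the 53 genes, of 12 neuronal markers and of 10 astrocyte markers in each library, coloured by treatment, with bars from 0. The first sums range from 5170 to 11100 and follow the second, and in apoE3 replicate 4 both are lowest while the third is highest (6690).

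For the gene with the largest swing between cultures and for the 3 that fell with apoE3 in every fit with a library left out, the 120 bases before the annotated start site are given from RefSeq on GRCm38.p6, each on the strand of its gene and 5′ to 3′. *Homer1* lies at chr13:93303637-93303756 on the plus strand, *Akap5* at chr12:76324771-76324890 on the plus strand, *Lrrtm3* at chr10:64090256-64090375 on the minus strand and *Cnksr2*, at the start site farther upstream, at chrX:158043281-158043400 on the minus strand. Capitals mark a match to the CRE-like letters TGACGTNA in *Homer1*, a motif known to bind CREB, and a CCAAT box, read on the opposite strand, in *Akap5*.
Homer1: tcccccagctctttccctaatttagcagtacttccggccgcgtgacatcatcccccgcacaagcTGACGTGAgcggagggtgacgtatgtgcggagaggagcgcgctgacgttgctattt
Akap5: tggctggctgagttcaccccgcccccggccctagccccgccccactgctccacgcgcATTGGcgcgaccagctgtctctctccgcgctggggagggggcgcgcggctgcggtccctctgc
Lrrtm3: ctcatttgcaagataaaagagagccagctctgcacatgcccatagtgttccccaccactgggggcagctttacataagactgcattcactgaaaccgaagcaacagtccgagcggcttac
Cnksr2: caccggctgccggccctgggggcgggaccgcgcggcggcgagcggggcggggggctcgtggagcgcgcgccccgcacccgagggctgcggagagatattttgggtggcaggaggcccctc

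Of the 53 genes 40 had a promoter in the table used. Within 250 bases before a start site, on either strand, TGACGTNA was present for 2 of the 40 genes (5%, *Homer1* and *Slitrk2*) and for 2.92% of the 27025 symbols in that table. CACGTG was present for 7.5% of the 40 and 6.86% of all, TATAAA for 17.5% and 14.3%, and CCAAT for 37.5% of each. The *Akap5* window held 75.8% G and C and the *Cnksr2* window 80%, with 13 and 17 CpG sites, beside 50.8% and 3 CpG sites for *Lrrtm3* and 58.3% and 11 for *Homer1*. Over all promoters the median GC content of this window was 54.2%. *Homer1* and *Cnksr2* have a second annotated start site, whose 120 bases held none of the 4 motifs.

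A list of 47 other postsynaptic and adhesion genes, all of them tested, had no called gene on groups alone. With the block 7 fell (background 3.73%) and 3 rose (7.95%) with apoE3, 2 rose with apoE2 (1.73% in either direction), 1 rose and 1 fell with apoE4 (3.3%), and 2 were lower with apoE4 than with apoE2 (4.44%). The genes that fell with apoE3 were *Flrt3* (-0.54 ± 0.11), an adhesion protein that binds latrophilins, the teneurin gene *Tenm2* (-0.59 ± 0.17), the inhibitory scaffold gene *Gphn* (-0.26 ± 0.08), *Cadm1* (-0.40 ± 0.09), *Magi2* (-0.38 ± 0.10), *Clstn1* (-0.33 ± 0.09) and *Clstn3* (-0.36 ± 0.11). *Igsf9b*, an adhesion gene of inhibitory synapses, rose with apoE3 (0.91 ± 0.14, adjusted p = 0.00139), apoE2 and apoE4, and *Cadm4* (0.32 ± 0.09) and *Tenm3* (0.50 ± 0.15) rose with apoE3. The median of the 47 genes with apoE3 on groups alone was -0.10, beside 0.02 over all tested genes.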

How the data were processed

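RNA of 16 cultures was depleted of ribosomal RNA, and the authors mapped the reads to mm10 with STAR and counted them per gene with HTSeq. Each deposited file holds unnormalised counts, 1 value for each of 48397 gene symbols. The submitters' processing notes also name Picard, DESeq2, bedtools and R 3.3.0. The annotation release and the strand setting of the counting are not given in the sources used here. The counter's totals of unassigned reads (38.4 to 73.7% per library) entered neither scaling nor tests. The sample labels gave both the group and the replicate number.

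Counts were fitted with edgeR 4.0.16 in R 4.3.3 over all 16 libraries, with TMM scaling, filterByExpr (minimum count 10, minimum total 15, minimum proportion 0.7), 1 coefficient per group and the quasi-likelihood test, and p-values were adjusted by Benjamini-Hochberg over 17038 genes in each of 6 comparisons. On groups alone a p-value thus measures the spread between cultures. In the blocked fit it measures the spread that is left after the differences between replicate numbers are taken out. CPM is relative to the TMM-scaled library size. For variance shares, log2 CPM was computed after adding a prior count of 2. The number of counts limits precision through the counts given beside low genes. DESeq2 1.42 was an alternative, and the scripts were tested on simulated data. Promoter sequences come from RefSeq on GRCm38.p6 and gene positions and exon lengths from GENCODE M21 on GRCm38, the build that mm10 names.

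Whether replicate numbers pair the libraries was checked by correlating deviations from the group means. Libraries numbered 1 correlated with each other at 0.362 to 0.552 and those numbered 2 at 0.766 to 0.831. Those numbered 3 correlated at 0.62 to 0.671 and those numbered 4 at 0.681 to 0.79. Libraries of different numbers ranged from -0.736 to 0.569, so numbers 2 to 4 stood above all of these and number 1 did not. The check thus does not settle whether number 1 pairs its libraries, and the block was applied to all 4 numbers. The pairing comes from this check, and the labels do not say what a number shares. The block lowered the common dispersion from 0.132 to 0.0178.

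The 53 genes, the list of 47 other genes and the marker lists were chosen with earlier results of these data known. A further gene planned for the list of other genes is not reported here. Every gene called in either fit or meeting the study's criterion was to be described in each library, with *Dlg4*, *Camk2a*, *Shank3*, *Homer1*, *Nlgn1* and *Syndig1l* in any case. Other genes were named by role. Alternatives were DESeq2, DESeq2 size factors, no filter or a stricter filter on low counts, the compared groups alone, the test named in the study's methods, the replicate block and leaving out each library.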

Additional observations from a re-analysis of the deposited data

Results flagged for a closer look

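*Camk2a* in apoE4 replicate 4, at 204 CPM, lay far from the other 3 apoE4 libraries, of which the nearest had 707 CPM. A gap of this size relative to the range of a group of 4 arises by chance in about 1 of 20 groups, and 60 groups of the described genes were examined, of which this was the only one past the limit. The same library was low for most of the 53 genes.

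Differences between isoforms passed the test of the difference itself in the blocked fit for *Syndig1l* (log2 fold change -1.32) and *Cnksr2* (0.61) between apoE4 and apoE3, and for *Dlgap3* (-0.42) and *Cnksr2* (-0.60) between apoE3 and apoE2.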

How the results depend on the processing

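The number of the 53 genes called at an adjusted p of 0.05 was 0 in every comparison on groups alone, and it stayed at 0 with DESeq2 size factors, with no filter, with a stricter filter, with only the compared groups, with the methods' test and without any 1 library. With DESeq2 it was 2 for apoE3 against control (0.242% of all genes) and 1 for apoE4 against apoE3 (0.295%). With the replicate block it was 1 for apoE2 (1.73% of all genes), 11 for apoE3 (11.7%) and 0 for apoE4 (3.3%) against control. Between isoforms it was 2 for apoE4 against apoE3 (1.76%), 0 for apoE4 against apoE2 (4.44%) and 2 for apoE3 against apoE2 (1.31%). DESeq2 with the block called 4, 14, 0, 3, 3 and 5 in the same order, beside 4.32, 15.3, 5.99, 4.31, 7.63 and 4.34% of all genes. Without 1 library the blocked edgeR count for apoE3 against control ranged from 4 (4.29 to 6.71% of all genes) to 17 (14.3%). With library sizes set to the neuronal markers it was 8 (14%), 4 of them lower. By the 2-fold criterion the count without 1 library was 0 to 1 with apoE2, 1 to 2 with apoE3 and 0 to 1 for apoE4 against apoE2. *Syndig1l* did not meet it with apoE2 without control replicate 3 (log2 fold change 0.99) or apoE2 replicate 3 (0.98), and *Cnksr2* reached -1.01 with apoE3 without apoE3 replicate 2. The median log2 fold change for apoE4 against apoE3 ranged from -0.036 to 0.218 without 1 library. The cause of these changes was not tested. No direction of a called gene turned in these alternatives. Depth limits the sparsest genes, and the lowest count in a library was 71 for *Lrrtm3*, 76 for *Lrrtm4* and 86 for *Syndig1l*.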
